A study of Mus musculus with 29 samples.

Results

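The mammalian cell cycle is driven by cyclins, regulatory subunits whose levels set the activity of their partner cyclin-dependent kinases. D cyclins bind the kinases CDK4 and CDK6 and begin the phosphorylation of the retinoblastoma protein, which releases E2F transcription factors. E cyclins and then cyclin A bind CDK2 and carry cells into and through DNA synthesis, and p27Kip1, the product of Cdkn1b, binds these complexes and holds CDK2 inactive. In the ovary, granulosa cells depend on cyclin D2 for their proliferation in response to hormones, and embryonic germ cells leave mitosis to enter meiosis before birth.

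The transcripts of 9 genes of this machinery were followed in mouse ovary by bulk RNA sequencing: the D cyclins Ccnd1, Ccnd2 and Ccnd3, the E cyclins Ccne1 and Ccne2, the A cyclin Ccna2, and the kinases Cdk2, Cdk4 and Cdk6. They were taken by name, 9 of the 51912 gene IDs in the deposited count table, and all 9 passed the filter on low counts in each of the 11 comparisons made. The samples were dissociated ovarian cells of wild-type mice (Cdkn1b +/+, WT) and of mice homozygous for its loss (Cdkn1b -/-, p27null) of 4 ages, E13.5 and E18.5 (days of embryonic life), PND8 (a postnatal day) and 12wk (weeks of age). There were 4 WT samples at each age, 4 p27null samples at E18.5 and 3 p27null samples at each of the other ages, which makes 29 samples in 8 groups. The strain, the null allele's design, littermate controls and any pooling of animals are not given in the sources used here, so p-values measure the spread between these samples.

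Libraries held 14.1 M to 48.2 M counts, so that 3 counts correspond to 0.0622 to 0.213 CPM, the counts scaled to a common library size, a floor that covers counting error only. Levels below are CPM scaled by TMM over all 29 samples. Cdkn1b was lower in every p27null library than in any WT library of its age, by 2.09-fold at PND8 to 8.31-fold at E18.5, and it was still counted in the p27null libraries. Its WT means were 22.9, 103.3, 148 and 185.1 CPM in order of age and its p27null means 4.5, 12.5, 71.5 and 51.3 CPM, so that the p27null mean at PND8 lay above the WT mean at E13.5. The difference was called at the 3 earlier ages and not at 12wk (-1.85 ± 0.31, adjusted p = 0.211). Each of the 6 stromal markers averaged at least 1 CPM in every group. Of the 8 granulosa lineage markers, Amh, Fshr and Cyp19a1 averaged under 1 CPM at E13.5 in both genotypes. All of these were under 1 CPM at E18.5 in WT too. The 8 germ cell markers summed to 285 to 1105 CPM in embryonic WT libraries, with Figla, Nobox and Zp3 averaging under 1 CPM at E13.5. At 12wk they summed to only 3.73 to 55.9 CPM in both genotypes, with Ddx4 and Dazl under 1 CPM on average. In bulk samples, fewer cells of a type and less RNA per cell cannot be told apart. Exons of 8 of the 9 genes share 34 to 1100 bases with a gene on the other strand, such as Exosc9 for Ccna2 and Tspan31 for Cdk4, and the strandedness of the libraries is not given in the sources used here, so reads of such pairs cannot be told apart there.

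Per kilobase of the longest annotated transcript, Cdk4 had the highest level of the 9 genes in all 8 groups. In WT it stood at 298.8 ± 43.3 CPM per kb (SD, n = 4) at E13.5, 210.1 ± 15.5 by E18.5, 252.5 ± 31.2 at PND8 and 187.3 ± 18.3 at 12wk. Cdk6, the other partner of the D cyclins, was far lower, at 5.19 ± 0.245 CPM per kb in WT at E13.5 and 15.3 ± 2.49 at PND8. Cdk4 therefore made up 81.8% ± 1.19 (E18.5) to 88.5% ± 0.658 (E13.5) of the summed WT level of the 3 kinases (SD, n = 4), and Cdk2 made up 6.99% ± 1.11 (12wk) to 13.1% ± 1.49 (E18.5).

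Sequences upstream of Cdk2, Cdk4 and Ccne1 are shown because these genes behaved differently in the comparisons below, so the choice followed the results. The promoter set used held no window for Ccnd1, Ccnd2, Ccne2 or Ccna2. They are RefSeq promoter windows of GRCm38.p6, printed 5′ to 3′ on the gene's strand and limited to the bases outside the annotated gene. Capitals mark matches to 4 E2F words (TTTGGCGC, TTTCCCGC, TTTGCCGC and TTTCGCGC) or to the E-box CACGTG, searched on both strands. None of these words contains another.
Cdk2, chr10:128705052-128705301, minus strand: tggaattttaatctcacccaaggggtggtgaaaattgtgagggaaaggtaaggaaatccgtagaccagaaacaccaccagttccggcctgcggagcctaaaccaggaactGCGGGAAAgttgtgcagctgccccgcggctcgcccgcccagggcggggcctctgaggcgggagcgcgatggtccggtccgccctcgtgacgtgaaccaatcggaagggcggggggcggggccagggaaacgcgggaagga
Cdk4, chr10:127063285-127063533, plus strand: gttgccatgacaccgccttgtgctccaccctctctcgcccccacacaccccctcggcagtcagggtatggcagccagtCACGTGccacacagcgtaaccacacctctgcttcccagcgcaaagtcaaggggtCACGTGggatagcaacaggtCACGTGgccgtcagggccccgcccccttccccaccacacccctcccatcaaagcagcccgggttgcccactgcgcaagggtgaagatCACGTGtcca
Ccne1, chr7:38107535-38107740, minus strand: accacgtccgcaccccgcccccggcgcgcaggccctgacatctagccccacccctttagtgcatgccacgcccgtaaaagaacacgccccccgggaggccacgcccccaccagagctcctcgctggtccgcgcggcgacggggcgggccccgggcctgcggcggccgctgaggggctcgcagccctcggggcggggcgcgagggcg
The Cdk2 window held 1 E2F word, GCGGGAAA, 140 bases before the start site. The Cdk4 window held 4 E-boxes, at 172, 118, 98 and 11 bases before the start site, and no E2F word. The Ccne1 window held neither motif. Among the windows searched but not shown, that of Cdk6 held 1 E-box, 220 bases before the start site, and those of Ccnd3 held neither motif. Of 32851 promoter windows of the same length, 250 bases before to 50 after the start, 2.3% held an E2F word and 7.2% an E-box. A match, or the lack of one, describes these exact letters in these windows only.

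**Figure D1:**
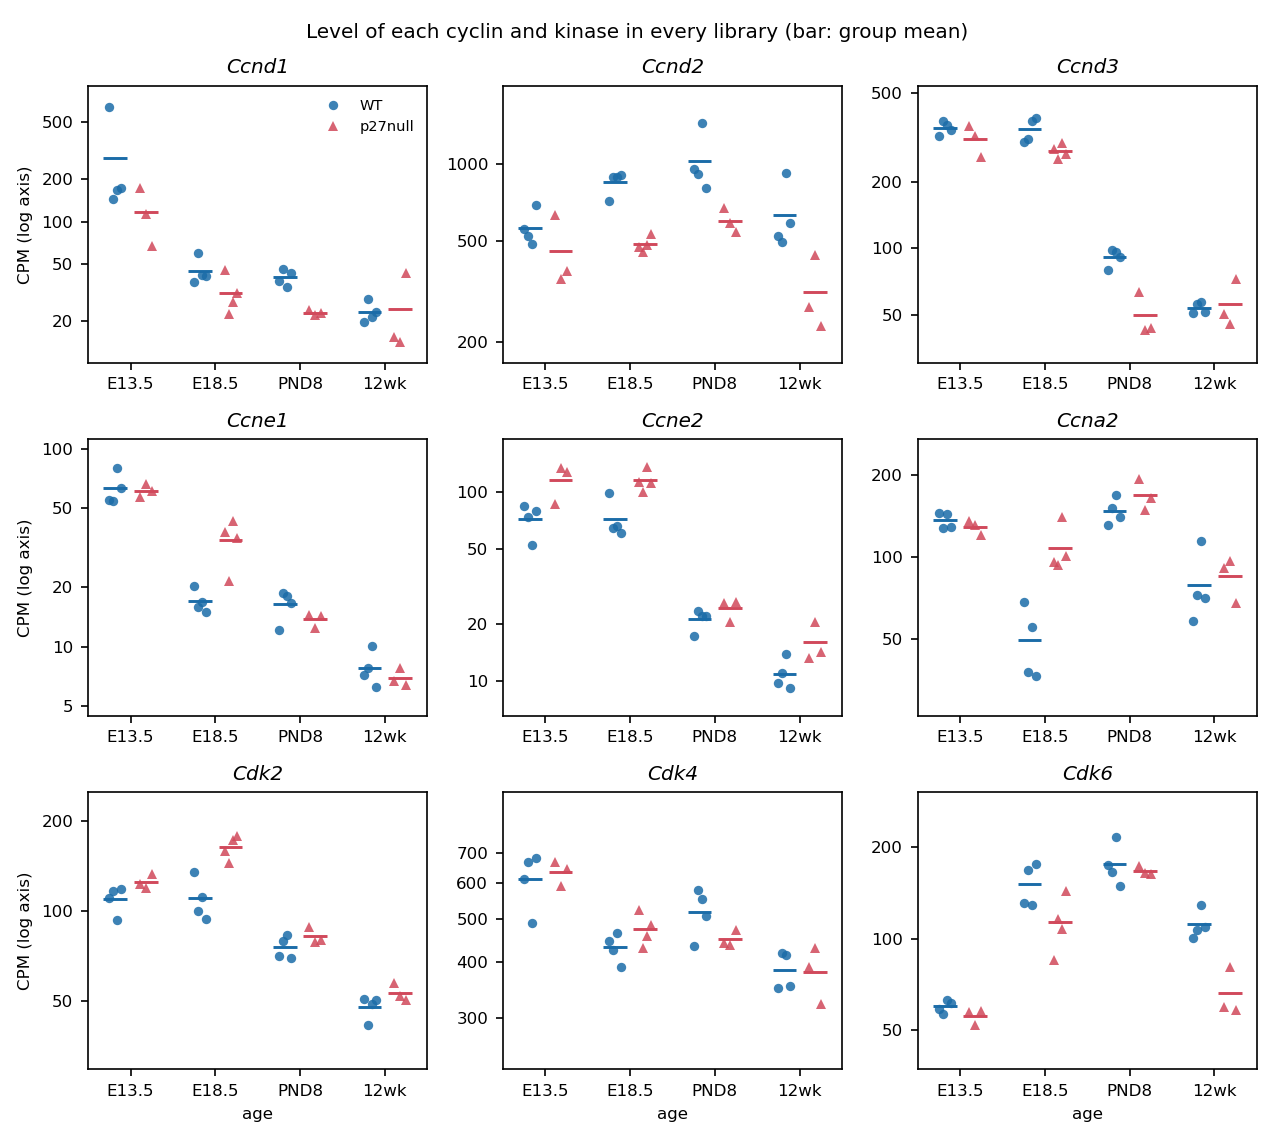
CPM of each of the 9 genes (log axis, scaled by panel) in every library at the 4 ages, with WT as circles, p27null as triangles and the group mean as a bar. At E18.5 Ccnd2 is lower, and Ccne1, Ccne2, Ccna2 and Cdk2 are higher, in all 4 p27null libraries than in any WT library.

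The first question was how these genes change with age in WT. Genes with a Benjamini-Hochberg adjusted p under 0.05 over all genes tested in edgeR's quasi-likelihood test are described as called. Overlap of libraries between groups is given as a description, and the share of all genes without overlap was not counted. From E13.5 to E18.5, 2 of the 9 were called higher and 4 lower, where 16.6% of all genes were called higher and 17.5% lower. From E18.5 to PND8, 1 was called higher and 3 lower, against 37.6% and 36.9% of all genes. From PND8 to 12wk, none of the 9 was called higher and 8 were called lower, against 16.1% and 14.3% of all genes, and the median log2 change of the 9 was -0.69 where that of all genes was -0.01.

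Ccnd1, a D cyclin induced by growth factor signals in many tissues, had its highest level at E13.5. Its WT levels were 642.4, 144.8, 166.2 and 173.2 CPM at E13.5, 37.38, 59.8, 41.82 and 41.23 by E18.5, 38.32, 46.34, 34.54 and 43.56 at PND8, and 19.78, 28.32, 21.42 and 22.95 at 12wk. Every E13.5 library lay above every later one, E18.5 and PND8 overlapped, and 12wk lay below PND8. The fall from E13.5 to E18.5 was -2.65 ± 0.50 (log2, SE; adjusted p = 0.0036) and was called without any 1 of the 8 libraries, at -1.86 without E13.5 WT replicate 1, the library at 642.4 CPM. The further fall from PND8 to 12wk was -0.74 ± 0.14 (adjusted p = 0.0038).

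Ccnd2, the D cyclin that granulosa cells use, followed another course. WT levels were 555.2, 521.9, 483.5 and 693.1 CPM at E13.5, 717.0, 894.6, 888.5 and 911.6 by E18.5, 960.6, 916.8, 1456 and 806.9 at PND8, and 521.4, 492.9, 926.3 and 586.3 at 12wk. It rose by 0.59 ± 0.15 on the log2 scale to E18.5 (adjusted p = 0.011), and its later steps were 0.19 ± 0.18 (adjusted p = 0.36) and -0.64 ± 0.24 (adjusted p = 0.074). The last step was called only without 12wk WT replicate 3, the highest 12wk library, among the 8 left out in turn.

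Ccnd3, the D cyclin best known from maturing blood cells, was level across the embryonic ages and then fell. WT means were 349.8 ± 23.8 CPM at E13.5, 343.6 ± 42.4 by E18.5, 91.4 ± 8.32 at PND8 and 54.0 ± 3.09 at 12wk (SD, n = 4). The step from E18.5 to PND8 was -1.99 ± 0.12 (adjusted p = 3.08e-07), the largest among the 9 genes in WT for that interval, and the step to 12wk was -0.69 ± 0.08 (adjusted p = 0.00047). All 4 libraries of the earlier age lay above all 4 of the later one in both steps.

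The make-up of the D cyclin transcripts therefore differed between ages. Per kb, WT libraries at E13.5 held 26.9% ± 15.5 Ccnd1, 35.9% ± 7.93 Ccnd2 and 37.2% ± 9.37 Ccnd3 (SD, n = 4). Per kb of all exons the means were 33.7%, 39.5% and 26.8%, so the order of the 3 at this age depends on the length used. The Ccnd1 share ran from 17.7% to 50.1% and was highest in WT replicate 1, the library with 642.4 CPM of Ccnd1. At E18.5 Ccnd1 was down to 5.12% ± 1.09, with Ccnd2 at 57.1% ± 1.48 and Ccnd3 at 37.8% ± 2.53. At PND8 Ccnd2 made up 81.9% ± 4.00 and at 12wk 82.5% ± 4.05, and these 2 ages overlapped for each of the 3 genes.

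**Figure D2:**
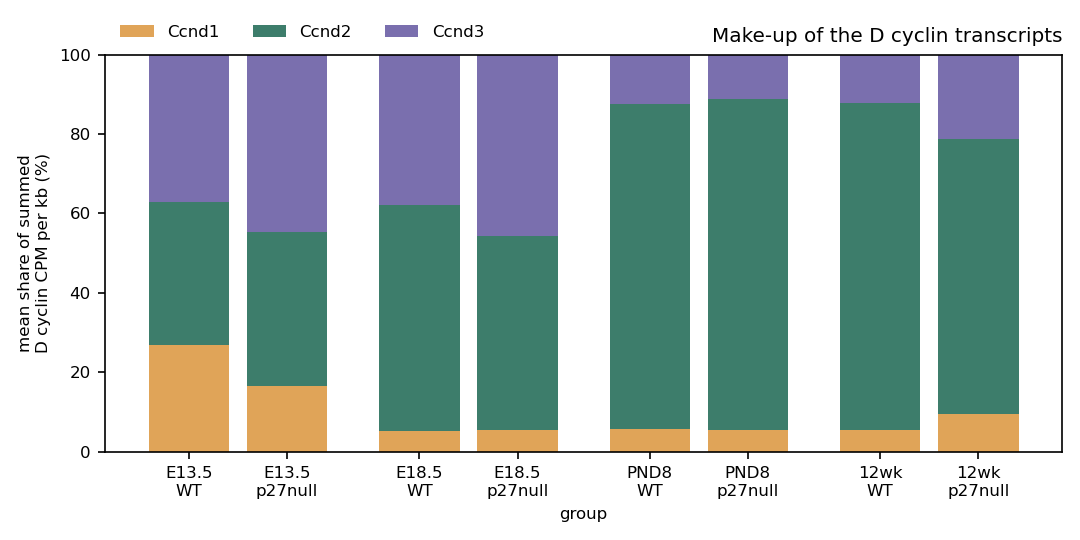
Mean share of each D cyclin in the summed D cyclin level (CPM per kb of the longest transcript) in the 8 groups, without error bars. Ccnd2 makes up 35.9% of the sum in WT at E13.5 and 81.9% at PND8, and in p27null ovaries it makes up 38.8% and 83.3%. Per kb of all exons, not shown, the WT shares at E13.5 are 33.7% Ccnd1, 39.5% Ccnd2 and 26.8% Ccnd3.

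The E cyclins parted company between E13.5 and E18.5. Ccne1 in WT was at 55.16, 54.47, 79.62 and 63.23 CPM at E13.5 and at 20.24, 15.92, 16.88 and 14.93 CPM at E18.5, with no overlap. It fell by 1.90 on the log2 scale (SE 0.17, adjusted p = 4.39e-05), stayed within its spread to PND8 (-0.13 ± 0.16, adjusted p = 0.48) and fell again to 12wk (-0.99 ± 0.18, adjusted p = 0.0040). Ccne2, its close relative, was at 72.0 ± 13.9 CPM at E13.5 and 72.1 ± 17.5 at E18.5 (SD, n = 4). Its fall came after E18.5, by 1.85 on the log2 scale to PND8 (SE 0.17, adjusted p = 3.52e-06) and by 0.88 to 12wk (SE 0.15, adjusted p = 0.0029). Per kb, Ccne2 made up 43.3% ± 8.84 of the E cyclin sum in WT at E13.5, 73.6% ± 1.88 at E18.5 and 46.3% ± 1.66 at PND8.

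Ccna2, the cyclin of S phase and G2, dipped at E18.5. WT levels were 144.6, 127.4, 143.9 and 128.8 CPM at E13.5, 68.41, 37.73, 54.99 and 36.34 by E18.5, 131.2, 151.0, 168.6 and 140.3 at PND8, and 57.96, 72.51, 114.7 and 70.37 at 12wk. The E18.5 libraries lay below every E13.5 and PND8 library and overlapped those of 12wk. The step down was -1.47 ± 0.20 (adjusted p = 0.00044), the step up to PND8 was 1.51 ± 0.19 (adjusted p = 3.92e-05) and the step to 12wk was -0.83 ± 0.19 (adjusted p = 0.011). Ccna2 was the only 1 of the 9 genes called higher from E18.5 to PND8 in WT.

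Among the kinases, Cdk6 rose and Cdk4 fell before birth. Cdk6 was at 58.44, 56.6, 62.74 and 61.6 CPM in WT at E13.5 and at 130.9, 168.9, 129.2 and 175.9 at E18.5, a change of 1.33 ± 0.13 (adjusted p = 8.12e-05). Cdk4 fell by 0.52 over that interval (SE 0.14, adjusted p = 0.014). Cdk2 was at 109.5 ± 11.5 CPM at E13.5 and 110.0 ± 18.1 at E18.5 (SD, n = 4), then fell by 0.62 to PND8 (SE 0.12, adjusted p = 0.00081) and by 0.59 to 12wk (SE 0.09, adjusted p = 0.0020). From PND8 to 12wk Cdk6 fell by 0.59 (SE 0.12, adjusted p = 0.0063) and Cdk4 by 0.36 (SE 0.11, adjusted p = 0.032). The Cdk4 call at that step was lost without 12wk WT replicate 1 or 4 or PND8 WT replicate 2, 3 or 4.

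The same steps were tested in p27null ovaries. From E13.5 to E18.5, 2 of the 9 genes were called higher (Cdk2 and Cdk6) and 3 lower (Ccnd1, Ccne1 and Cdk4), where 15.8% and 14.5% of all genes were. From E18.5 to PND8, 3 were called higher (Ccnd2, Ccna2 and Cdk6) and 5 lower (Ccnd1, Ccnd3, Ccne1, Ccne2 and Cdk2), against 38.9% and 38.5% of all genes. From PND8 to 12wk, none was called higher and 5 were called lower (Ccnd2, Ccne1, Ccna2, Cdk2 and Cdk6), against 14.8% and 14.3% of all genes. Ccna2 in p27null went from 129.2 ± 7.71 CPM (n = 3) at E13.5 to 107.6 ± 21.9 (n = 4) at E18.5 and 169.3 ± 22.5 (n = 3) at PND8 (SD), so its E18.5 level was not called different from that at E13.5 (-0.24 ± 0.15, adjusted p = 0.24), and it was called 0.59 ± 0.15 higher at PND8 (adjusted p = 0.0044). Ccne1 fell by 0.81 to E18.5 (SE 0.20, adjusted p = 0.017) and by 1.39 to PND8 (SE 0.21, adjusted p = 0.00021).

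Ccnd1 in p27null from E18.5 to PND8 and Ccnd2 over the same step passed narrowly, at -0.53 ± 0.21 (adjusted p = 0.043) and 0.24 ± 0.10 (adjusted p = 0.047). The Ccnd1 call was kept only without E18.5 p27null replicate 2 or 3, and the Ccnd2 call only without PND8 p27null replicate 4 or E18.5 p27null replicate 4, among the 7 libraries left out in turn. The fall of Ccnd2 from PND8 to 12wk (-0.85, adjusted p = 0.026) was kept only without 12wk p27null replicate 3, with adjusted p of 0.055 to 0.082 in the other 5 fits that left out 1 library. From E13.5 to E18.5, Ccne1 lost its call without E13.5 p27null replicate 3 (adjusted p = 0.052), as did Cdk2 without E18.5 p27null replicate 3 and Cdk4 without E18.5 p27null replicate 2 (adjusted p = 0.0503 and 0.0502). Ccnd1 from PND8 to 12wk was 0.21 ± 0.46 (adjusted p = 0.78) with all libraries and -0.56 (adjusted p = 0.018) without 12wk p27null replicate 4. That library held 43.8 CPM of Ccnd1, where the other 2 p27null libraries held 15.4 and 14.3, and its summed endothelial markers were 1097 CPM, where the other 12wk libraries held 384 to 517. The part of these cells in the Ccnd1 level was not tested.

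The second question was what the loss of Cdkn1b changed at each age. At E13.5 none of the 9 genes was called by edgeR, where 0.00606% of all genes were. An unadjusted p under 0.05 was found for 1 of the 9, Ccne2, and for 576 of the 16508 genes tested. DESeq2 also called 0 of the 9 and 0.394% of all genes. Ccne2 was at 83.86, 73.13, 52.25 and 78.88 CPM in WT and 86.06, 133.0 and 126.6 CPM in p27null, a log2 difference of 0.64 ± 0.19 (adjusted p = 0.988). The 3 p27null libraries lay above the 4 WT libraries, with p27null replicate 1 close to the highest WT library.

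The largest E13.5 difference was that of Ccnd1, at -1.29 ± 0.60 on the log2 scale (adjusted p = 0.988), and it rested on WT replicate 1. Ccnd1 was at 642.4, 144.8, 166.2 and 173.2 CPM in WT and 171.2, 113.5 and 67.22 CPM in p27null. Without WT replicate 1 the difference was -0.49 (adjusted p = 0.9999). That library also held 73.3 CPM of Th and 75.8 of Dbh, genes of sympathetic neurons and adrenal chromaffin cells, where the p27null libraries held at most 0.675 CPM of each. The other WT libraries held 3.08 to 18.2 CPM of Th and 2.02 to 15.4 of Dbh, so every WT library lay above every p27null library for both genes. A sum of 9 such markers, a list chosen after the data were seen, was 521 CPM in WT replicate 1, 249 in WT replicate 4, 68.4 and 67.1 in the other WT libraries and 40.6 to 69.8 in the p27null libraries. The part of such cells in the Ccnd1 level was not tested.

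**Figure D3:**
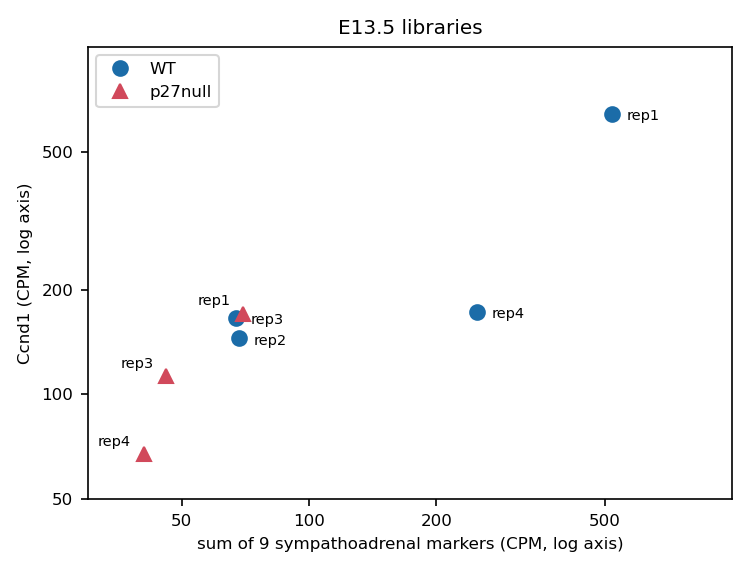
Ccnd1 against the summed level of 9 sympathoadrenal markers (both CPM, log axes) in the 7 E13.5 libraries, with WT as circles and p27null as triangles. WT replicate 1 stands at the top right with 642 CPM of Ccnd1 and 521 CPM of markers, and WT replicate 4 has 249 CPM of markers with 173 CPM of Ccnd1.

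At E18.5 cyclin D2 and the E and A cyclins differed in opposite directions between the genotypes. Ccne1, Ccne2, Ccna2 and Cdk2 were called higher in p27null ovaries, by 1.48-fold to 2.16-fold, and Ccnd2 was called lower, by 1.77-fold. That is 5 of 9 genes, 4 higher and 1 lower, where 4.99% of all genes were called, 3.32% higher and 1.67% lower.

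Ccnd2 was at 717.0, 894.6, 888.5 and 911.6 CPM in WT and 470.6, 450.2, 481.1 and 532.3 CPM in p27null. Every p27null library lay below every WT library, and the log2 difference was -0.83 ± 0.11 (adjusted p = 0.0023). It was called without any 1 of the 8 libraries and under each of the 7 other settings tried. Ccnd3 was lower in each p27null library too (252.3 to 299.2 against 302.1 to 385.3 CPM), at -0.33 ± 0.11 (adjusted p = 0.10), which did not pass. Ccnd1 was at -0.52 ± 0.22 (adjusted p = 0.20), with overlapping groups.

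Ccne1, which activates CDK2 at the start of S phase, was at 20.24, 15.92, 16.88 and 14.93 CPM in WT and 37.87, 21.34, 43.01 and 35.38 CPM in p27null. The groups did not overlap, although p27null replicate 2 was close to the highest WT library, and the difference was 1.01 ± 0.20 (adjusted p = 0.018). Ccne2 was at 98.15, 64.25, 65.94 and 60.13 CPM in WT and 113.0, 99.43, 135.3 and 111.2 CPM in p27null. Its difference was 0.66 ± 0.16 (adjusted p = 0.041), and WT replicate 1 lay close to the lowest p27null library.

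Ccna2 showed the largest difference of the 9 at this age. It was at 68.41, 37.73, 54.99 and 36.34 CPM in WT and 95.63, 93.57, 140.0 and 101.0 CPM in p27null, with no overlap (1.11 ± 0.22, adjusted p = 0.018). Cdk2, the shared partner of E and A cyclins, was at 134.8, 99.99, 111.5 and 93.71 CPM in WT and 158.9, 144.9, 172.4 and 177.6 CPM in p27null (0.56 ± 0.13, adjusted p = 0.029). The D cyclin kinases were not called: Cdk4 differed by 0.13 ± 0.10 (adjusted p = 0.49) and Cdk6 by -0.43 ± 0.16 (adjusted p = 0.15), both with overlapping groups.

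The calls of the higher genes were also made under each of the 7 other settings tried, but they depended on single libraries. Without WT replicate 1 all 5 genes were called. Without WT replicate 2 or p27null replicate 2, Ccne2 was lost and 4 were called. Without WT replicate 3 or p27null replicate 1, Ccnd2, Ccne1 and Ccna2 were called, and without WT replicate 4, p27null replicate 3 or p27null replicate 4, Ccnd2 alone was. Over these 8 fits the log2 difference was 0.89 to 1.19 for Ccne1 (adjusted p up to 0.077), 0.57 to 0.84 for Ccne2 (up to 0.14), 0.96 to 1.31 for Ccna2 (up to 0.059) and 0.49 to 0.67 for Cdk2 (up to 0.11).

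**Figure D4:**
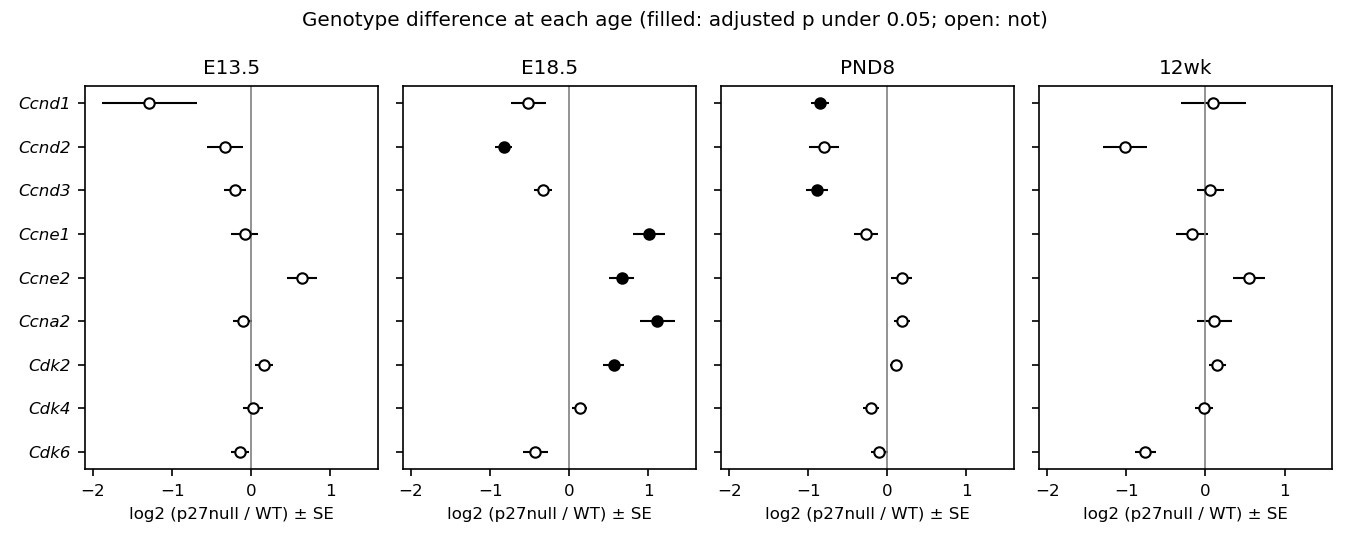
Log2 difference between p27null and WT (with its SE) for the 9 genes at each age, filled where the adjusted p was under 0.05. At E18.5 Ccnd2 lies at -0.83 and Ccne1, Ccne2, Ccna2 and Cdk2 at 0.56 to 1.11; at PND8 Ccnd1 and Ccnd3 are filled at -0.85 and -0.89, and no point is filled at E13.5 or 12wk.

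Other genes of the pathway were counted from 7 lists of 102 genes, chosen with earlier results of these data known, so the counts are a description. Of all genes tested at E18.5, 3.32% were called higher and 1.67% lower. Of 20 S phase genes that E2F controls, all 20 were called higher at E18.5, with a median log2 difference of 1.11 where that of all genes was -0.04. Mcm3 and Mcm4, subunits of the replicative helicase, were higher by 1.26 ± 0.12 (adjusted p = 0.00065) and 1.09 ± 0.10 (adjusted p = 0.00073). Of 16 mitotic genes 15 were called higher, with a median of 1.23, and Cdc20, an activator of the anaphase-promoting complex, and the kinase Plk1 were each higher by 1.58 (SE 0.11 and 0.17, adjusted p = 4.56e-05 and 0.00096). Without WT replicate 1 the counts were 20 and 14, and leaving out 1 of the 8 libraries at a time gave 17 to 20 S phase genes and 10 to 14 mitotic genes, the 10 without p27null replicate 3.

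The other 5 lists held 0 to 3 calls each, where 4.99% of all genes were called. Of 11 genes of CDK activation, 3 were called higher, among them Cdc25c, a phosphatase that activates CDK1 (1.37 ± 0.19, adjusted p = 0.0030), and Cks1b, a CDK subunit that also helps the ubiquitin ligase of p27 to bind it (0.80 ± 0.11, adjusted p = 0.0032). Of 13 pocket protein and E2F genes, 2 were called higher, Rbl1, which encodes p107 (1.10 ± 0.17, adjusted p = 0.0052), and Tfdp1, a partner of E2F (0.51 ± 0.10, adjusted p = 0.015). Of 12 genes of cyclin and p27 turnover, only Skp2, which marks p27 for degradation, was called (0.64 ± 0.16, adjusted p = 0.041), and its call was kept only without WT replicate 1 or 2 or p27null replicate 2, while Ddb1 was at 0.35 ± 0.11 (adjusted p = 0.091). With 1 library left out, the pocket protein and E2F list held 4 calls without WT replicate 1, 1 without p27null replicate 3 and 2 otherwise, and the CDK activation list held 2 or 3, with 2 in 6 of the 8 fits. Of 7 CDK inhibitors, Cdkn1b itself was the only one called, as lower, Cdkn2c lying at 0.57 ± 0.27 (adjusted p = 0.24). Of 23 other cyclins and kinases, 22 were tested and none was called by edgeR, DESeq2 or limma-voom. The last 2 called 10.3% and 10.6% of all genes. An unadjusted edgeR p under 0.05 was found for 5 of the 22 and for 3615 of the 16322 genes tested. Cdk8 lay at -0.73 ± 0.25 (adjusted p = 0.12) and Cdk12 at -0.42 ± 0.15 (adjusted p = 0.12). At E13.5, PND8 and 12wk no gene of the 7 lists was called by edgeR apart from Cdkn1b at E13.5 and PND8. Besides Cdkn1b, an unadjusted edgeR p under 0.05 was found for 2 of 98 genes tested at E13.5, 22 of 99 at PND8 and 7 of 99 at 12wk. Over all genes it was found for 576 of 16508, 2662 of 17785 and 1675 of 17396. DESeq2 called 0, 6 and 2 of the listed genes, and 0.394%, 4.57% and 1.87% of all genes.

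**Figure D5:**
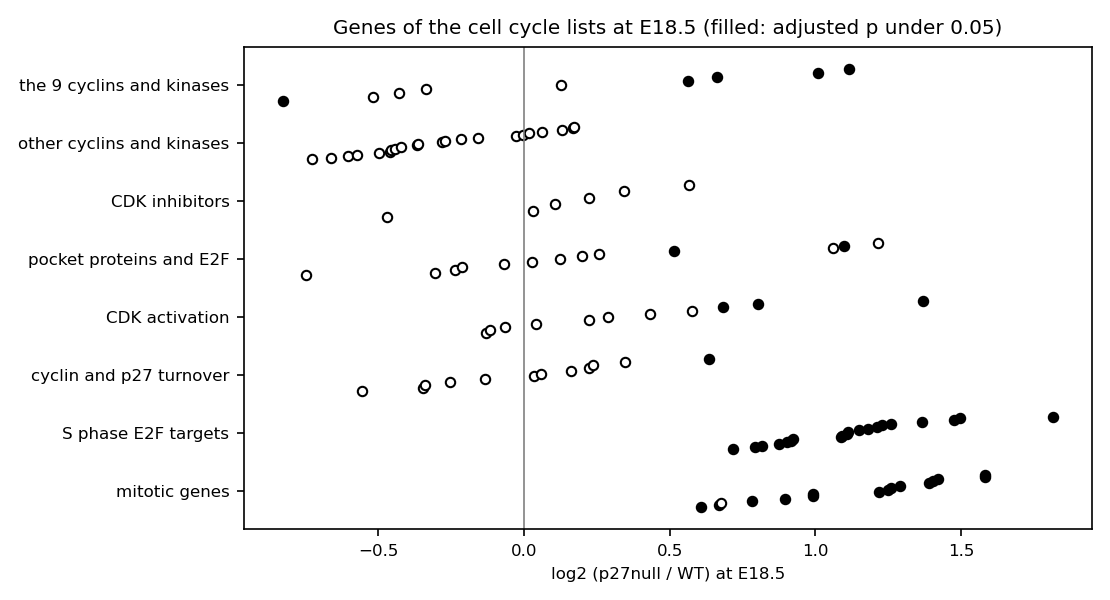
Log2 difference between p27null and WT at E18.5 for the tested genes of each cell cycle list, 1 point per gene, filled where the adjusted p was under 0.05; Cdkn1b, at -3.06, is left out. The 20 S phase genes and 15 of the 16 mitotic genes are filled and lie to the right of 0, and none of the 22 other cyclins and kinases is filled.

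Cell type markers were read beside these values. At E18.5 the 8 germ cell markers summed to 430 to 1105 CPM in WT and 331 to 679 CPM in p27null, and none of the 7 tested was called by edgeR. Of these 7, 2 had an unadjusted edgeR p under 0.05, where 3615 of all 16322 genes did. DESeq2 called 2 of the 7 and 10.3% of all genes. The 8 granulosa lineage markers summed to 389 to 485 CPM in WT and 435 to 572 CPM in p27null. Of 7 tested, 2 were called higher, Inha and Cyp19a1, the latter at only 0.46 CPM in WT and 2.65 CPM in p27null on average. The 5 theca and steroidogenic markers summed to 150 to 252 CPM in WT and 275 to 366 CPM in p27null, without overlap. Of 4 tested, 1 was called higher, Hsd3b1 (0.75 ± 0.19, adjusted p = 0.048), and Insl3 was under 1 CPM on average in both genotypes. Hsd3b1 alone averaged 178.6 CPM in WT and 302.3 CPM in p27null. The 6 stromal markers summed to 2571 to 4318 CPM in WT and 2102 to 3570 CPM in p27null, with 1 of 6 called lower, Nr2f2. The median log2 difference of the tested markers was -0.61 for germ cells, -0.11 for the granulosa lineage, 0.07 for theca and steroidogenic cells and -0.41 for stroma. Of the endothelial, immune, erythroid, surface epithelial, and oviduct and mesonephric markers none was called, and the sums of each list overlapped. The part of these cells in the differences of the cyclins was not tested.

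At PND8 the genes called were 2 D cyclins. Ccnd1 was at 38.32, 46.34, 34.54 and 43.56 CPM in WT and 23.85, 22.01 and 22.75 CPM in p27null, a log2 difference of -0.85 ± 0.11 (adjusted p = 0.037). Ccnd3 was at 79.6, 98.18, 96.16 and 91.52 CPM in WT and 63.25, 42.66 and 43.86 CPM in p27null (-0.89 ± 0.14, adjusted p = 0.047). Ccnd2, at 960.6, 916.8, 1456 and 806.9 CPM in WT and 670.6, 586.0 and 540.4 CPM in p27null, was lower by a like amount that did not pass (-0.80 ± 0.19, adjusted p = 0.13). None of the 3 genes overlapped between the genotypes, a description only, since the share of all genes without overlap was not counted. The 2 calls, both lower, compare with 0.349% of all genes called and 0.304% called lower. Of the stromal markers 1 of 6 was called lower at PND8, Pdgfra (-0.86 ± 0.14, adjusted p = 0.047), and the 6 summed to 6705 to 9581 CPM in WT and 5429 to 9150 CPM in p27null. The 5 theca and steroidogenic markers summed to 1075 to 1401 CPM in WT and 1412 to 2299 CPM in p27null, without overlap, with none called and a median log2 difference of -0.20. The 5 surface epithelial markers summed to 160 to 320 and 104 to 253 CPM, with none called and a median of -0.81. The part of these cells in the D cyclin differences was not tested.

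These 2 calls depended on single libraries. Both were kept without p27null replicate 1, Ccnd1 alone was kept without WT replicate 3, and neither was kept without WT replicate 1, 2 or 4 or p27null replicate 3 or 4, although the log2 differences stayed between -0.92 and -0.78 for Ccnd1 and between -1.09 and -0.79 for Ccnd3. The E and A cyclins and the kinases were not called at this age: Ccne1 was at -0.27 ± 0.15 (adjusted p = 0.44), Ccne2 and Ccna2 at 0.18 each (SE 0.13 and 0.10, adjusted p = 0.55 and 0.45), Cdk2 at 0.11 ± 0.08 (adjusted p = 0.55), Cdk4 at -0.21 ± 0.10 (adjusted p = 0.36) and Cdk6 at -0.10 ± 0.11 (adjusted p = 0.74).

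At 12wk none of the 9 genes was called by edgeR, where 0.0115% of all genes were. An unadjusted p under 0.05 was found for 3 of them, Ccnd2, Ccne2 and Cdk6, and for 1675 of the 17396 genes tested. DESeq2 called 2 of the 9, Ccnd2 and Cdk6, and 326 of all genes (1.87%). Ccnd2 was at 521.4, 492.9, 926.3 and 586.3 CPM in WT and 274.6, 437.8 and 231.1 CPM in p27null, with no overlap (-1.02 ± 0.28, adjusted p = 0.40). Cdk6 was at 100.8, 106.9, 129.5 and 109.2 CPM in WT and 59.62, 80.41 and 58.26 CPM in p27null, again with no overlap (-0.76 ± 0.13, adjusted p = 0.21). Ccne2 was at 10.92 ± 2.07 CPM in WT (n = 4) and 16.01 ± 3.93 in p27null (SD, n = 3), with overlapping groups (0.55 ± 0.20, adjusted p = 0.47). The 8 granulosa lineage markers summed to 3707 to 5597 CPM in WT and 2409 to 4833 CPM in p27null (median log2 difference -0.42). Theca and steroidogenic sums were 3248 to 12222 and 5599 to 8456 CPM (median 0.34). Germ cell markers had a median of -2.28, and 3 of 5 tested had an unadjusted edgeR p under 0.05. None of these markers was called by edgeR, and DESeq2 called 1 germ cell marker. The part of these cells in the differences was not tested.

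Summed over the 3 D cyclins, CPM per kb was lower in p27null at the 3 later ages without overlap, a description with no test. The sum was 235.8 ± 23.9 in WT and 155.9 ± 9.02 in p27null at E18.5 (SD, n = 4 each). It was 198.1 ± 45.1 (n = 4) and 113.7 ± 13.4 (n = 3) at PND8, and 120.0 ± 31.7 (n = 4) and 70.8 ± 12.5 (n = 3) at 12wk. With all libraries, the lower sum at 12wk came from Ccnd2, at 99.8 ± 31.6 CPM per kb in WT and 49.7 ± 17.2 in p27null. Ccnd1 (0.10 ± 0.41, edgeR adjusted p = 0.96) and Ccnd3 (0.06 ± 0.17, adjusted p = 0.94) were not called at that age, and their groups overlapped. Both values turned negative without 12wk p27null replicate 4, at -0.67 for Ccnd1 and -0.20 for Ccnd3 (edgeR adjusted p = 0.53 and 0.62). At E13.5 the sums overlapped, 214.2 to 342.7 in WT and 144.5 to 237.8 in p27null. At E18.5 the share of Ccnd3 in this sum was 42.7% to 48.2% in p27null and 34.0% to 39.2% in WT, and that of Ccnd2 was 46.8% to 52.1% and 56.2% to 59.3%. The E cyclin sum was 43.8 to 66.5 CPM per kb in p27null and 27.5 to 42.8 in WT at E18.5, and overlapped between the genotypes at the other ages.

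Whether the genotype difference itself changed with age was tested with 3 interaction coefficients over all 29 samples. Ccne1 was the only gene of the 9 called (adjusted p = 0.028), where 0.806% of all genes were called in either direction. Its genotype difference was -0.08 ± 0.17 at E13.5, 1.01 ± 0.20 for E18.5, -0.27 ± 0.15 at PND8 and -0.17 ± 0.20 at 12wk. Ccna2 (adjusted p = 0.080) and Ccnd3 (adjusted p = 0.093) came next and did not pass, and Ccnd2, with a negative difference at each age, had an adjusted p of 0.61. The Ccne1 call was kept in 23 of 29 fits that left out 1 library and lost without E18.5 WT replicate 2, 3 or 4 or E18.5 p27null replicate 1, 3 or 4, with adjusted p up to 0.096. An interaction call was not particular to Ccne1. Of the lists above, 9 of 20 S phase genes and 10 of 16 mitotic genes were called in this test, and 0 or 1 gene in each other list.

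Over the 29 libraries the pairs of genes that ran most closely together were described by Pearson's r of log2 CPM over points that share 4 ages and 8 groups, as a description. Ccne2 and Cdk2 had r = 0.948 and Ccne2 and Ccnd3 r = 0.90, while Ccnd2 and Ccne1 had r = -0.025. After group means were removed, Ccnd2 with Cdk6 (r = 0.644) and Ccne1 with Ccna2 (r = 0.637) were the highest of the 36 pairs, and Ccnd1 with Ccnd2 was at r = -0.082. Among 12947 genes with a mean of at least 2 CPM, those most like each member were Gap43 (r = 0.908) and Gng2 (0.903) for Ccnd1, Cacfd1 (0.809) and Mdga1 (0.788) for Ccnd2, and Inka1 (0.978) and Dclk1 (0.975) for Ccnd3. They were Jpt2 (0.975) and Kpna2 (0.972) for Ccne1, Pole4 (0.991) and Cenpk (0.989) for Ccne2, and Cdca3 (0.974) and Bub1b (0.963) for Ccna2. For the kinases they were Mbnl3 (0.959) and Magee2 (0.957) for Cdk2, Prmt1 (0.929) and Saal1 (0.92) for Cdk4, and Krt79 (0.921) and Nobox (0.907) for Cdk6.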

How the data were processed

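Expected counts per gene were deposited by the authors for 29 bulk RNA-seq libraries. They are estimated read counts made with RSEM 1.3.0 and STAR 2.5.2 after Trim Galore and FastQC 0.11.5, per the submitters' processing notes. The genome build, Ensembl release and strandedness are not given in the sources used here. Of the values above 0, 31.4% were not whole, and all were rounded. Groups and replicate numbers came from sample titles. Genotypes within an age and consecutive ages within a genotype were compared on those samples alone with edgeR 4.0.16 (R 4.3.3): TMM, filterByExpr (minimum count 10, total 15), robust quasi-likelihood F test, Benjamini-Hochberg adjustment and a threshold of 0.05, tested on simulated data. The SE is the log2 difference divided by the square root of F. Symbols, positions and lengths are those of GENCODE M21 (GRCm38). Alternatives were RLE scaling, no filter, DESeq2 1.42.0, limma-voom 3.58.1, a replicate block, removal of haemoglobin genes, all groups in 1 fit, and leaving out each library. The text names the 9 genes, Cdkn1b, per list the 2 genes with the smallest E18.5 p and any gene called at another age, and per member the 2 genes with the highest r (prior count 2). Members and lists were chosen with earlier results of these data known.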

Additional observations from a re-analysis of the deposited data

Results flagged for a closer look

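In groups of 4 libraries the highest or lowest value was compared with the others by Dixon's ratio (critical value 0.829). Of 60 groups and measures 5 exceeded it, where chance gives about 1 in 20. Ccnd1 was at 642 CPM in E13.5 WT replicate 1, where the other 3 WT libraries held 145 to 173. Haemoglobin genes took 19% of the counts of E13.5 WT replicate 3 and 0.702% to 1.05% in the others. E18.5 WT replicate 1 had the lowest Ccnd2, 717 CPM where the others held 889 to 912, and the highest Ccne2, 98.2 CPM where the others held 60.1 to 65.9. Ccna2 was at 140 CPM in E18.5 p27null replicate 3, where the others held 93.6 to 101. The genotype difference of Ccne1 differed between the ages (edgeR interaction test, adjusted p = 0.0277).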

How the results depend on the processing

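Of 1233 log2 differences of single genes under other settings, 40 had the other sign, none of them for the 43 results called at first. In 1 of them the other setting made a call, Ccnd1 from PND8 to 12wk in p27null at -0.56 without 12wk p27null replicate 4 and at up to 0.50 with another library left out. Another 60 lost a call and 14 gained one. For the genotype at E18.5, 5 of the 9 genes were called, and 1 to 5 with 1 library left out. At PND8 the count of 2 became 1 with RLE scaling, 3 with DESeq2, 0 with all groups in 1 fit, 0 with the replicate block, and 0 to 2 with 1 library left out. At 12wk the count of 0 became 2 with DESeq2 and 1 with all groups in 1 fit. For the interaction the count of 1 became 3 with DESeq2, 2 with limma-voom, 0 with the replicate block and 0 to 2 with 1 library left out. The cause of these changes was not tested. The main fits did not pair libraries, and the replicate block was only an alternative. As a guide to pairing, the deviations of same-numbered libraries had to correlate above 0.1 in every pair. No genotype comparison met this: the correlations were -0.0956 to 0.115 at E13.5, 0.0399 to 0.139 for E18.5, -0.0186 to 0.152 at PND8 and 0.0241 to 0.161 at 12wk, all above 0 at E18.5 and 12wk. There the replicate block gave 6 and 0 genes. The step from E13.5 to E18.5 in p27null met it (0.105 to 0.208). The values given above for that step are from the unpaired fit, and the block left its count at 5. Per kb of all exons in place of the longest transcript, 55 of 72 group levels moved by more than 1 SD. Differences smaller than those called may exist at 3 or 4 libraries a group.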
